A study of Rattus norvegicus with 18 samples.

Results

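Genes that control the actin cytoskeleton were followed in autoreactive rat T cells that had lost the transcription factor Ets1 or the receptor kinase Grk2. The 10 genes were *Was*, *Wipf1*, *Rac2*, *Ppp1r9b*, *Tmsb4x*, *Coro1a*, *Arpc1b*, *Cfl1*, *Pfn1* and *Actb*. They were taken by gene name from 3 rat expression tables that list 32882 genes each, and all 10 were found once in every table. The cells were CD4+ T-MBP cells, a Lewis rat T cell culture specific for myelin basic protein, expanded and restimulated with their antigen and isolated on day 3 after transfer into Lewis rats. Knockout (KO) cells had received Cas9 with a guide against *Ets1* or *Grk2*, and control cells, labelled WT, a non-targeting (NT) guide. Control cells were sorted by blue and KO cells by green fluorescent protein, so the sort colour and the edit cannot be told apart. The 18 libraries formed 6 groups of 3, namely parenchymal NT and *Ets1*-KO cells taken from the spinal cord, splenic NT and *Ets1*-KO cells, and splenic *Grk2*-KO cells with a separate set of splenic NT cells.

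A crawling T cell pushes its front forward by building branched actin filaments and recycles them behind the edge. Rac2, a small GTPase of blood cells, and the Wiskott-Aldrich syndrome protein encoded by *Was*, held stable by its partner WIP (*Wipf1*), switch on the Arp2/3 complex, of which Arpc1b is a subunit and which starts new branches. Actb is the filament protein itself, Tmsb4x (thymosin beta 4) holds actin monomers in reserve, Pfn1 (profilin) hands them to growing ends, Cfl1 (cofilin) severs old filaments, Coro1a (coronin 1A) binds filaments in leukocytes, and Ppp1r9b (spinophilin) is a scaffold that binds filaments and protein phosphatase 1.

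The guides are shown because they name the targeted genes. Whether these were the guides used for the sequenced cells is not stated beside them. The study's list of single guides gives 1 rat sequence for each target and 1 non-targeting sequence, 20 bases long, written 5′ to 3′ without the PAM.
Non-Targeting: gctgcatggggcgcgaatca
Ets1 guide: tgctgctcggagttaacagt
Grk2 guide: gatttgtcagaacctccgag

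Ets1 belongs to a family of factors that bind DNA around the letters GGAA, so the promoters of the members were searched for CCGGAA and for GGAAGT on both strands, in windows of 250 bases before and 50 bases after the annotated start. A RefSeq promoter (build GRCr8) was matched for 8 of the 10 members, all but *Rac2* and *Actb*. The letters CCGGAA stood in 5 of these 8 windows (*Ppp1r9b*, *Tmsb4x*, *Arpc1b*, *Cfl1* and *Pfn1*), against 5004 of all 33469 promoters and 34.4% of the 5494 promoters of genes tested in the parenchyma. GGAAGT stood in 5 of 8 (*Was*, *Wipf1*, *Arpc1b*, *Cfl1* and *Pfn1*), against 22.6% and 32.1%. Both motifs can share the letters GGAA. The CArG box, the site of serum response factor at many actin genes, was in none of the 8 windows and in 1.64% of all promoters. A match of letters is a description and not evidence of binding. The windows of the members with the largest KO effects follow, all on the plus strand, with the matches in capitals, at chrX:17076807-17077106 for *Was*, chr10:80434650-80434949 for *Ppp1r9b* and chrX:30761361-30761660 for *Tmsb4x*.
Was: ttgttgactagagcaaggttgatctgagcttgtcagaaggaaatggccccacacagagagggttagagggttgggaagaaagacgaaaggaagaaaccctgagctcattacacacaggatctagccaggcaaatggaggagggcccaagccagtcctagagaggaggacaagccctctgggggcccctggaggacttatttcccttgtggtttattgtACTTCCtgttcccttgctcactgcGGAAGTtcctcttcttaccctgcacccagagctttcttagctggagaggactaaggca
Ppp1r9b: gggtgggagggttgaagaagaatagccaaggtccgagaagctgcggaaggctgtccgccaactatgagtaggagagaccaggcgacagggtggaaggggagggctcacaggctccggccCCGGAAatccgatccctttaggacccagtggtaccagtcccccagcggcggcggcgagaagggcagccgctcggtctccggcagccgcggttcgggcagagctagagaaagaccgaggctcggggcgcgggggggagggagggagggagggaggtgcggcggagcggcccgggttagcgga
Tmsb4x: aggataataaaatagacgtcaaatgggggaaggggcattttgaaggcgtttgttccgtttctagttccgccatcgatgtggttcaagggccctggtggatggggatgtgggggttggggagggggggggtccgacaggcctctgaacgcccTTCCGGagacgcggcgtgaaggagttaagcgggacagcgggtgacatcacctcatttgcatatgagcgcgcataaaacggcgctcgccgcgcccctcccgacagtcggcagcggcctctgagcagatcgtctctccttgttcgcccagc

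The values are normalized counts, that is, reads counted per gene at the 3′ end of transcripts and divided by a size factor of the library. Each library held between 898092 and 2248258 reads on genes. In the spleen *Ets1* table the KO libraries (1909862 to 2248258 reads) were deeper than their controls (898092 to 1213485 reads). T cell genes summed to 2597 to 3378 RPM (reads scaled to 1000000 reads on genes) in every library, whereas 12 myeloid genes summed to 20.0 to 49.7 RPM in the parenchyma and to at most 10.5 in the spleen. *Adgre1* was at 0 in all groups. The *Ets1* transcript itself did not pass the test in *Ets1*-KO cells (adjusted p from limma = 0.560 in the parenchyma and 0.854 in the spleen), and whether the reads, which lie at the 3′ end, cover the edited site was not examined, so this level does not check the label. *Grk2* fell in *Grk2*-KO cells from 166, 166 and 142 to 53.3, 64.2 and 87.3 normalized counts (adjusted p from limma = 1.76e-12).

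The comparison of *Ets1*-KO with NT cells in the parenchyma asked how the actin machinery differed in cells that had reached the nervous tissue. Of the 10 members, 3 fell (*Ppp1r9b*, *Was* and *Rac2*), 1 rose (*Tmsb4x*) and 6 did not pass the test. The members had been chosen with earlier results of these data known, so their share of calls is a description only. A gene was called at an adjusted p under 0.05 (limma on log2 of the normalized count plus 1, replicate number as a block, Benjamini-Hochberg over 7002 genes), a rule that called 5.23% of all genes tested, 2.27% upward and 2.96% downward. Of these calls 43.4% were upward, a share that was 54.8% with edgeR and 68.6% with DESeq2, and the 4 called members kept their direction under every alternative tried. Among the members, the transcripts of *Ppp1r9b* and *Was* had the largest log2 fold changes. Those of *Actb*, *Cfl1* and *Arpc1b*, the only Arp2/3 subunit among the members, stayed within 0.06 of zero on the log2 scale.

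*Ppp1r9b* stood at 425, 458 and 501 normalized counts in the NT libraries and at 299, 288 and 261 in the *Ets1*-KO libraries. Every KO library was below every control. The log2 fold change was -0.70 ± 0.095 (SE), a fitted change of -38.6%, with an adjusted p of 4.32e-11 from limma. *Ppp1r9b* kept its call without each replicate number in turn (adjusted p from limma between 3.56e-09 and 8.27e-06).

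*Was* was counted at 615, 718 and 633 in the controls and at 434, 435 and 527 in *Ets1*-KO cells. The groups again did not overlap, and the third KO library lay nearest to the controls. The gene fell by 0.50 on the log2 scale, with an SE of 0.086 and an adjusted p of 1.07e-06 from limma. Without replicate 2 the change was -0.38 with an adjusted p of 0.0460 from limma. Its partner *Wipf1*, which protects the WASP protein from degradation, had 408, 462 and 430.5 counts in NT and 335, 367 and 371 in KO libraries. All 3 KO libraries were lower than all 3 controls, yet the log2 fold change of -0.28 (95% interval -0.46 to -0.10) missed the threshold with an adjusted p of 0.0532 from limma. When only genes with a mean of at least 50 counts were tested, the adjusted p from limma for *Wipf1* was 0.0395. That was the only 1 of 14 alternatives that called *Wipf1*. Its adjusted p was 0.149 from limma without the replicate block, 0.0830 from edgeR and 0.726 from DESeq2.

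*Rac2* fell from 1579, 1593 and 1477 normalized counts to 1246, 1257 and 1300.0. The 3 KO values lay close together and below every control. The log2 fold change was -0.29 ± 0.073 (SE), with an adjusted p of 0.00302 from limma. This call rested on replicates 1 and 2, since the adjusted p from limma was 0.131 without replicate 1 and 0.200 without replicate 2, and DESeq2 gave 0.105.

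*Tmsb4x*, the monomer store, moved the other way. It rose from 5113, 5031 and 4843 normalized counts to 5924, 5953 and 6262, again without overlap. The log2 fold change was 0.28 ± 0.064 (SE), a level 21.0% higher, with an adjusted p of 0.000903 from limma. Without replicate 1 the adjusted p from limma was 0.0534 and without replicate 2 it was 0.101.

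**Figure D1:**
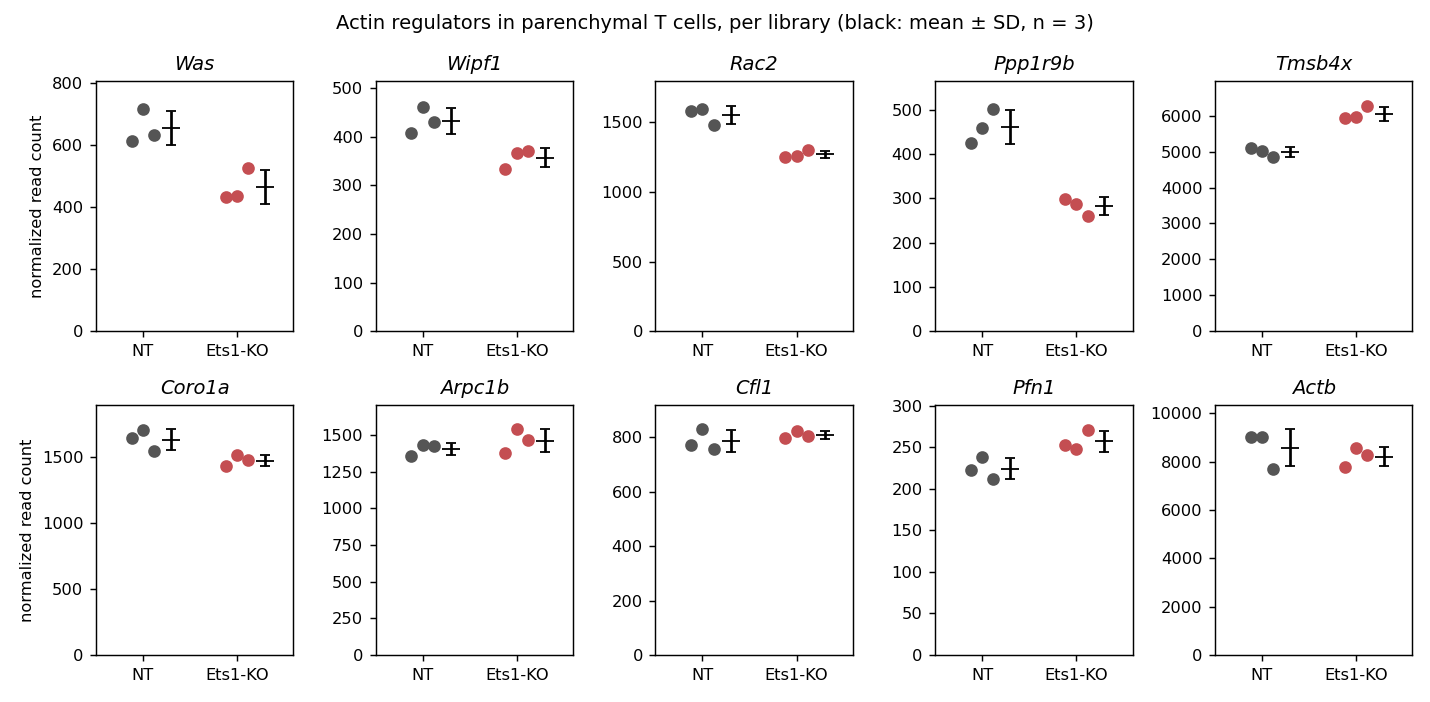
Normalized read counts (y axes, starting at 0 and scaled per gene) of the 10 members in parenchymal NT (grey) and *Ets1*-KO (red) libraries, with the mean ± SD of 3 libraries in black. *Ppp1r9b* (425 to 501 against 261 to 299), *Was* and *Rac2* are lower in every KO library, *Tmsb4x* is higher in every KO library, and *Actb*, *Arpc1b* and *Cfl1* overlap.

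The remaining 5 members did not pass the test in the parenchyma. *Coro1a* had 1643, 1702 and 1548 normalized counts in NT and 1428, 1512 and 1477 in KO libraries, a log2 difference of -0.15 with an adjusted p of 0.261 from limma. *Pfn1*, counted at 222, 238 and 212 in NT and 253, 248 and 271 in KO libraries, differed by 0.20 with an adjusted p of 0.339 from limma. For both genes the groups did not overlap. The 95% interval of *Coro1a* (-0.29 to -0.0065) left out zero before the adjustment, and the gene was called with quantile normalization (adjusted p from limma = 0.0485). That was the only 1 of 14 alternatives that called *Coro1a*. Its adjusted p was 0.396 from limma without the replicate block and 0.410 from edgeR. In all, 7 of the 10 members had groups that did not overlap, where 18.4% of all genes tested did. Since the members were chosen with earlier results of these data known, these shares are a description only. *Arpc1b* differed by 0.06 (95% interval -0.08 to 0.20), *Cfl1* by 0.04 (-0.12 to 0.20) and *Actb* by -0.06 (-0.18 to 0.06) on the log2 scale, and their KO and NT values overlapped. Without replicate 3 *Actb* was called lower, at -0.14 with an adjusted p of 0.0418 from limma, and without replicate 1 its difference was 0.02.

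Limma treated the spread of a gene as known from genes of like level here, since its prior degrees of freedom were infinite. When each gene was instead shrunk toward 1 common spread, 3 genes in all and none of the members were called (adjusted p from limma 0.249 for *Ppp1r9b* and 0.320 for *Was*), and that setting did not call the edited *Grk2* in its own table either (adjusted p from limma = 0.496). With 3 libraries against 3 the smallest two-sided p of an exact permutation test is 0.1, which *Was*, *Wipf1*, *Rac2*, *Ppp1r9b*, *Tmsb4x*, *Coro1a* and *Pfn1* reached. Myeloid genes summed to 20.0 to 40.4 RPM in NT and 35.4 to 49.7 in KO libraries of the parenchyma. The 2 CD8 genes summed to at most 2.67 RPM in NT and to 4.01 to 7.20 in KO libraries, with *Cd8b* at 0, and the 8 T cell genes to 2979 to 3162 against 3246 to 3378, both without overlap, while 7 genes of glia and neurons summed to 50.1 to 64.0 against 34.5 to 58.8. The part of these markers in the member differences was not tested. In sorted bulk samples a smaller share of cells with a transcript and less of it per cell cannot be told apart. Reads of *Actb*, *Tmsb4x*, *Cfl1* and *Pfn1* can also match pseudogene copies, and how such reads were assigned is not given in the sources used here.

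In the spleen, 1 of the 10 members changed in *Ets1*-KO cells, where 2.22% of the 6979 genes tested were called, 1.02% upward and 1.20% downward. *Tmsb4x* was at 6523, 6609 and 7202 normalized counts in NT libraries and at 12298, 9339.5 and 9294 in KO libraries. All KO libraries lay above the controls, and the first of them stood well above the other two. The log2 fold change was 0.59 ± 0.151 (SE), with an adjusted p of 0.0350 from limma, and without replicate 1 it was 0.43 with an adjusted p of 0.751 from limma. The mitochondrial share of reads was 14.1%, 14.9% and 21.0% in these KO libraries and 17.3% to 18.6% in the controls, and its part in the *Tmsb4x* difference was not tested.

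The members that fell in the parenchyma were not called in the spleen. *Was* had 619, 688 and 782 normalized counts in NT and 789.5, 769 and 816 in KO libraries, a log2 difference of 0.19 (95% interval -0.04 to 0.42). *Rac2* had 2859, 3124 and 3251 in NT and 2879, 3247 and 2769 in KO libraries, with a log2 difference of -0.06 (-0.30 to 0.19). *Ppp1r9b* had 482, 376 and 594 in NT and 361, 344 and 578 in KO libraries, with a difference of -0.20 (-0.43 to 0.04). The KO and NT ranges overlapped for all 3 genes, and for *Ppp1r9b* the intervals leave room for a fall of up to 0.43. Of the others, *Wipf1* (0.00), *Coro1a* (0.04), *Arpc1b* (0.10), *Cfl1* (-0.09), *Pfn1* (-0.15) and *Actb* (-0.20) had log2 differences whose 95% intervals all held zero. *Pfn1* was uneven in the controls, with 278, 384 and 124 normalized counts against 207, 229 and 205 in KO cells, and without replicate 3 it was called lower at -0.58 (adjusted p from limma = 0.00695). Groups without overlap were seen for 2 members, *Tmsb4x* and *Cfl1*, against 16.9% of all genes tested.

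**Figure D2:**
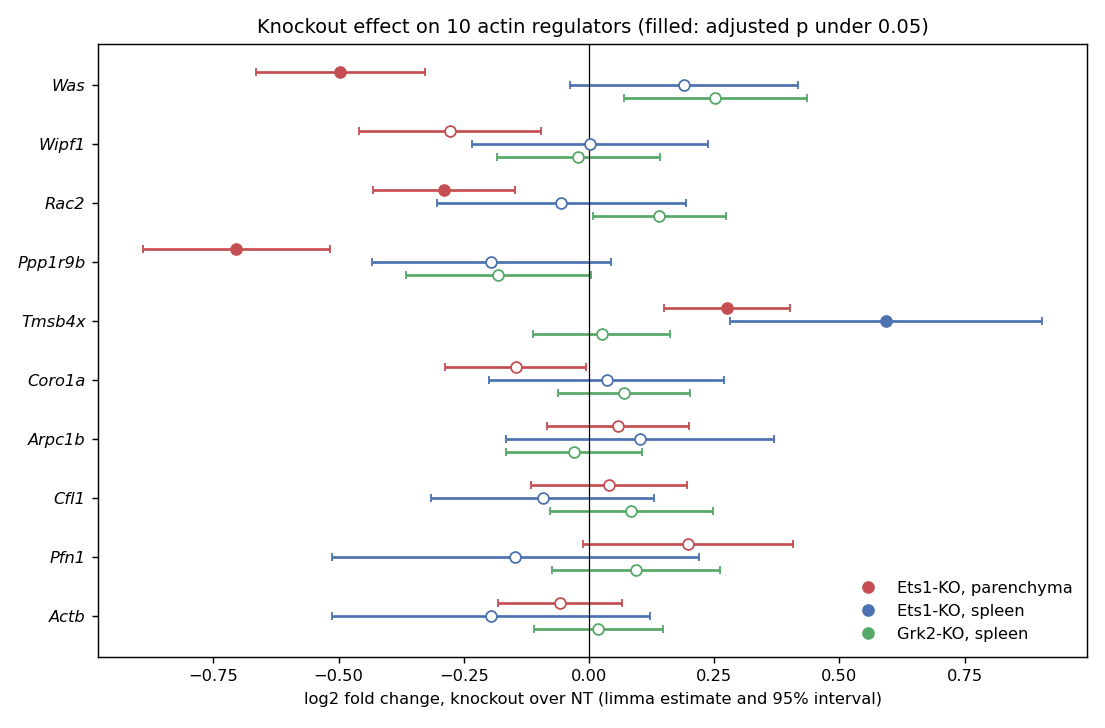
Log2 fold change of KO over NT (x axis, limma estimate with its 95% interval) for the 10 members in the 3 comparisons, with filled points where the adjusted p is under 0.05. The filled points are *Was*, *Rac2* and *Ppp1r9b* to the left of zero and *Tmsb4x* to the right of it in the parenchyma, and *Tmsb4x* alone in the spleen, while no point of the *Grk2* comparison is filled.

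Whether the effect of the *Ets1* knockout differed between the tissues was tested on the log2 ratios of KO to the NT library of the same replicate number, over 6520 genes, of which 2.10% were called, 0.675% more positive and 1.43% more negative in the parenchyma. *Was* was the only member called. Its ratios were -0.50, -0.72 and -0.26 in the parenchyma and 0.35, 0.16 and 0.06 in the spleen, so every ratio was below zero in one tissue and above zero in the other. These signs rest on matching libraries by number, and in the spleen the KO and NT counts of *Was* overlapped. The difference, parenchyma minus spleen, was -0.69 ± 0.141 (SE), with an adjusted p of 0.00421 from limma. It missed the threshold without replicate 1 (adjusted p from limma = 0.182) and without replicate 2 (0.0734). For *Ppp1r9b* the difference was -0.51 (95% interval -0.81 to -0.20) with an adjusted p of 0.0670 from limma, for *Tmsb4x* -0.32 (-0.63 to -0.01) with 0.341, and for *Rac2* -0.23 (-0.50 to 0.03) with 0.443. The falls of *Ppp1r9b* and *Rac2* and the rise of *Tmsb4x* were therefore not shown to differ between spinal cord and spleen.

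**Figure D3:**
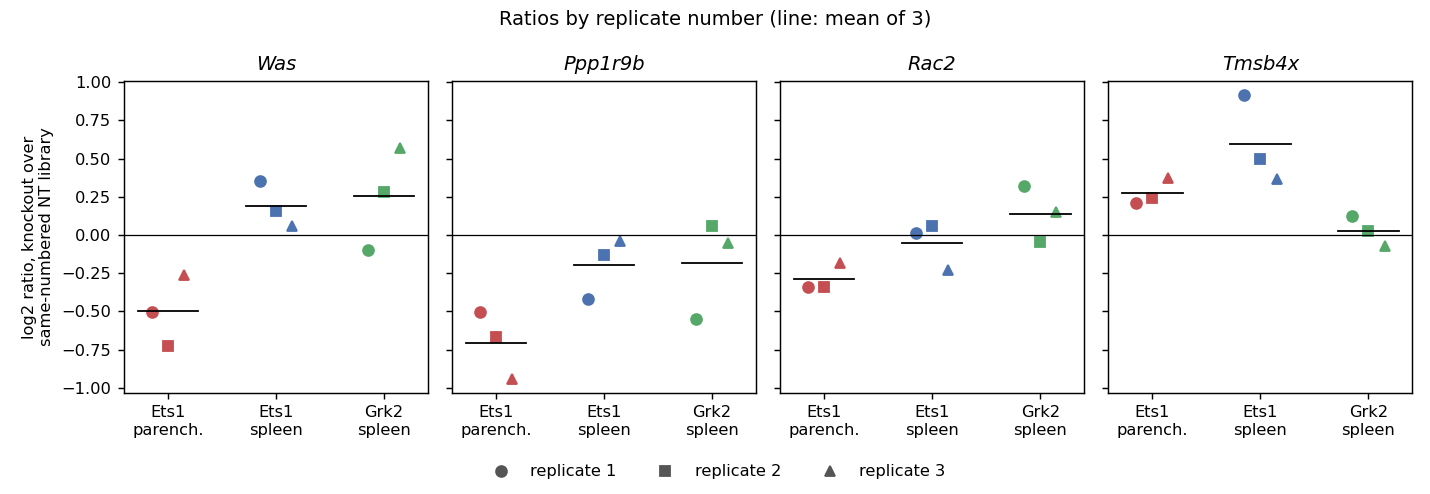
Log2 ratio of each KO library to the NT library of the same replicate number (y axis) for the 4 members called in any comparison, with the mean of 3 ratios as a line. *Was* lies below zero in the parenchyma (-0.72 to -0.26) and above it in the spleen *Ets1* table (0.06 to 0.35), while *Tmsb4x* lies above zero in both.

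Grk2 is a kinase that desensitises G protein-coupled receptors, and the comparison of *Grk2*-KO with NT cells in the spleen asked what its loss changed there. None of the 10 members was called by limma, where 1.56% of the 6985 genes tested were (0.931% upward and 0.630% downward), and edgeR and DESeq2 called none either. At an unadjusted p under 0.05 from limma, 2 of the 10 members passed, as did 728 of the 6985 genes tested. *Was* had 283, 265 and 255 normalized counts in NT and 265, 322 and 379 in KO libraries, a log2 difference of 0.25 with an adjusted p of 0.207 from limma. *Rac2* had 1662, 1788 and 1668 in NT and 2071, 1730.4 and 1852 in KO libraries, a difference of 0.14 with an adjusted p of 0.441 from limma. For *Was* the first KO library was as low as the controls, and no member had groups without overlap (12.2% of all genes tested did). The remaining members differed by between -0.18 (*Ppp1r9b*) and 0.09 (*Pfn1*) on the log2 scale. The unadjusted 95% intervals of *Was* (0.07 to 0.43) and *Rac2* (0.0073 to 0.27) left out zero, while those of *Actb* (-0.11 to 0.15), *Coro1a* (-0.06 to 0.20) and *Arpc1b* (-0.17 to 0.11) held it. *Tmsb4x*, which rose in both *Ets1* comparisons, differed by 0.03 (-0.11 to 0.16).

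Around the members, 85 further genes of the actin machinery were listed by role, of which 82 were found by symbol. In the parenchyma 74 of them were tested, and 6 fell and none rose in *Ets1*-KO cells, where 2.96% of all genes tested were called lower and 2.27% higher. The median log2 fold change was -0.05 on the list and -0.03 over all genes tested. The list, too, was drawn up with earlier results of these data known. The 6 were *Arhgef1*, a guanine nucleotide exchange factor (191, 217 and 229 normalized counts in NT, 165, 137 and 158 in KO, log2 fold change -0.47), *Rock2*, a kinase that promotes myosin contraction (-0.36), *Arhgap45*, a GTPase-activating protein (-0.32), *Flna*, the filament cross-linker filamin A (-0.32), *Myl12b*, a myosin regulatory light chain (-0.28), and *Abi1*, a subunit of the WAVE complex (-0.28). For each of these 6 genes, which were named because they were called, every KO library was below every control. Groups without overlap, in either direction, were seen for 21 of the 74 tested genes of the list and for 18.4% of all genes tested. Adjusted p-values from limma ran from 0.00298 (*Arhgef1*) to 0.0461 (*Abi1*), and none of the 6 was called without replicate 2 or by DESeq2. Without the replicate block *Arhgef1* and *Rock2* kept their calls, while *Arhgap45* (0.0736), *Flna* (0.0669), *Myl12b* (0.120) and *Abi1* (0.150) lost them by the adjusted p from limma.

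By role, 6 of 8 tested genes of the WASP, WIP and WAVE families had a negative log2 fold change in the parenchyma, and 1 was called. Of the 8 other subunits of the Arp2/3 complex 5 were positive, none was called, and their log2 fold changes ran from -0.37 (*Arpc1a*) to 0.14 (*Arpc3*). The cofilin pathway had 5 of 7 negative, none of them called, and all 3 tropomyosins were positive, also without a call. Over all genes tested 3821 of 7002 were negative. Genes that many cells use, such as *Actg1* and *Tmsb10*, had under 10 normalized counts in every library, so the list is not covered in full by these reads.

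**Figure D4:**
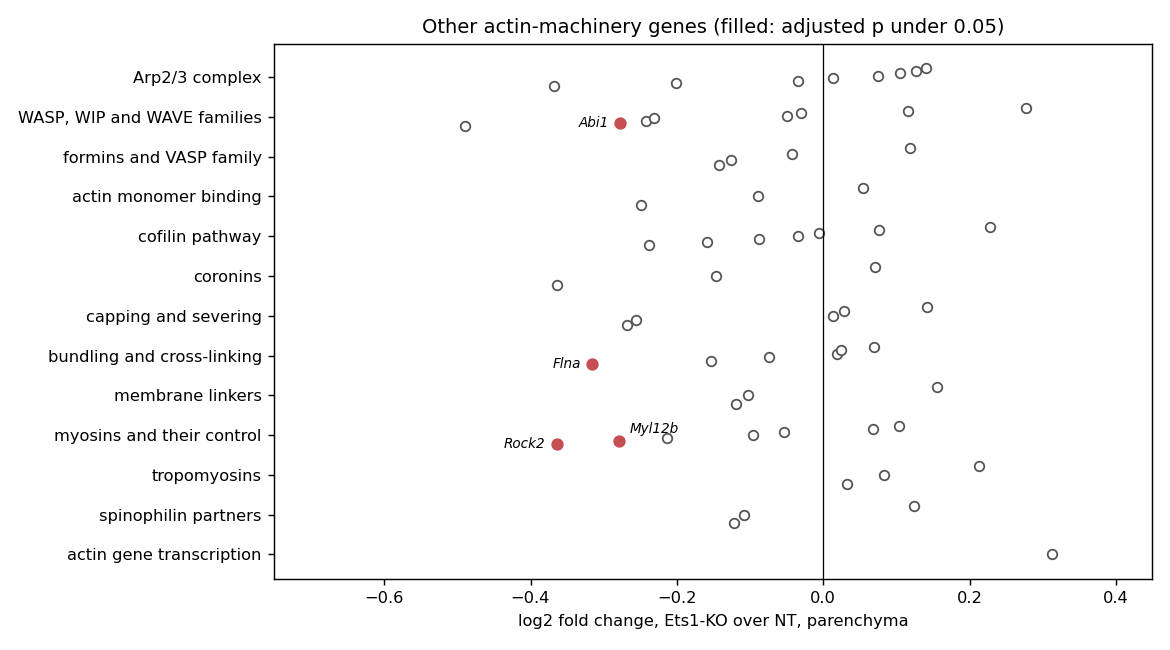
Log2 fold change of *Ets1*-KO over NT in the parenchyma (x axis) for 61 of the further genes of the actin machinery, 1 point per gene, grouped by role on the y axis, with called genes filled and named. The 4 filled points lie between -0.36 and -0.28, and no gene to the right of zero is filled.

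In the spleen none of the 74 tested genes of the list was called in *Ets1*-KO cells by limma. An unadjusted p under 0.05 from limma was seen for 9 of the 74 and for 984 of all 6979 genes tested. EdgeR called 1 of the 74 and 238 of all 6979. The effect on *Arhgef1* differed between the tissues by -0.74 ± 0.17 (SE), with an adjusted p of 0.0151 from limma, from -0.47 in the parenchyma to 0.27 in the spleen, and this call was lost without replicate 2 (0.136), without replicate 3 (0.160) and without the replicate block (0.0795). In *Grk2*-KO cells 2 genes of the list, both of the cofilin pathway, rose in the blocked fit, where 0.931% of all genes tested were called higher. *Limk1*, the kinase that inactivates cofilin, had 153, 144 and 110.3 normalized counts in NT and 215, 177 and 186 in KO libraries (log2 fold change 0.51, adjusted p from limma = 0.00166). *Gmfg*, a protein of the cofilin family that takes Arp2/3 branches apart, had 2011, 2084 and 2264 in NT and 2654, 2477 and 2503 in KO libraries (0.26, adjusted p from limma = 0.0118). Groups without overlap, in either direction, were seen in this comparison for 10 of the 74 tested genes of the list and for 12.2% of all genes tested. For both *Limk1* and *Gmfg*, which were named because they were called, every KO library was above every control. Neither was called without the replicate block (adjusted p from limma 0.123 for *Limk1* and 0.237 for *Gmfg*) or by DESeq2. When a replicate number was left out, *Limk1* was no longer called in any of the 3 fits (adjusted p from limma 0.0872 to 0.191), and *Gmfg* had adjusted p-values from limma of 0.0236 to 0.414.

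The control level of each member was set side by side in RPM, without a test, since the 3 tables came from separate sets of libraries. The 2 sets of spleen NT cells differed from each other by more than 2-fold in 23.4% of the 6207 genes measured in all tables, where the parenchyma differed from them by as much in 14.2% (*Ets1* table) and 22.5% (*Grk2* table), so a level in the spleen could not be given as 1 value. *Actb* stood at 8685, 8444 and 8437 RPM in the spleen controls of the *Ets1* table and at 2780.4, 2408 and 2219.7 in those of the *Grk2* table, a ratio of 3.45 between the means, with the parenchyma between them at 6437, 6198 and 5436. Of all 6207 genes, 4.17% were at least as far apart between the spleen sets. *Cfl1* (802 ± 19.4 against 314 ± 46.1, SD, n = 3) and *Was* (518 ± 46.3 against 206 ± 14.9) were the other members past 2-fold, both higher in the *Ets1* table. *Tmsb4x* went the opposite way, with 5049 ± 117 in the *Ets1* table and 9108 ± 810.3 in the *Grk2* table.

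For 3 members the parenchymal controls were below all 6 spleen controls in RPM. These were *Rac2* (1046 to 1130 RPM against 1254 to 2418), *Tmsb4x* (3429 to 3660 against 4914 to 10042) and *Coro1a* (1096 to 1176 against 1219 to 1618). The share of all genes in this position was not computed, so the count of members is a description only. Over 6207 genes the median log2 ratio of parenchymal to spleen controls was itself below zero, at -0.106 (*Ets1* table) and -0.110 (*Grk2* table). In normalized counts *Coro1a* overlapped, with 1548 to 1702 in the parenchyma and 1621 to 1816 in the spleen of the *Grk2* table. Mitochondrial reads made up 25.4% to 27.4% of reads in the parenchymal controls. In the spleen controls they made up 17.3% to 18.6% (*Ets1* table) and 22.3% to 22.6% (*Grk2* table). Their part in these RPM levels was not tested. *Actb* and *Cfl1* lay between the spleen sets in the parenchyma, and the other 5 members overlapped with at least 1 of them. *Wipf1* was the steadiest, at 305 ± 12.7 in the parenchyma, 323 ± 21.0 and 351 ± 44.8 (SD, n = 3) in the spleen sets, and its neighbours in this order overlapped. *Arpc1b* was alike in the parenchyma (989 ± 18.6) and the spleen of the *Grk2* table (1019 ± 56.1), whose ranges overlapped, and higher in the spleen of the *Ets1* table (1885 ± 259). *Ppp1r9b* (325 ± 26.7, 359 ± 65.4 and 231 ± 13.2 in the same order) overlapped between the parenchyma and the spleen of the *Ets1* table. Haemoglobin genes summed to 23.1 to 48.3 RPM in the spleen *Ets1* table and to at most 2.39 in the other tables, and their part in these level differences was not tested.

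**Figure D5:**
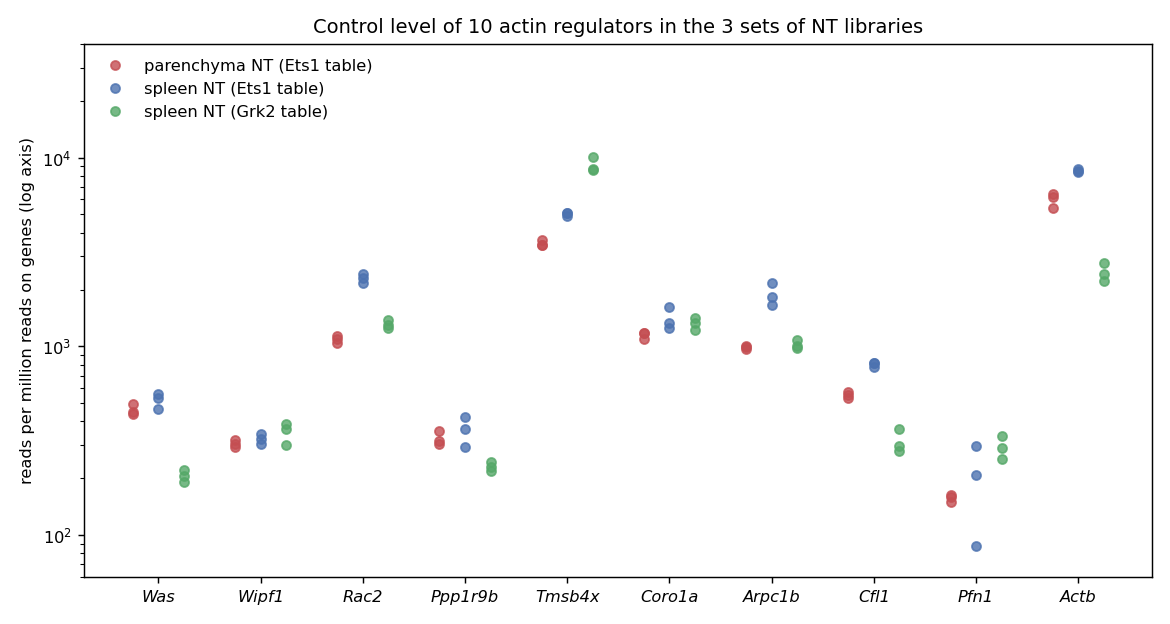
RPM (y axis, log scale) of the 10 members in the 9 NT libraries, coloured by the 3 control sets, 1 point per library. *Actb*, *Cfl1* and *Was* are lowest in the spleen set of the *Grk2* table, *Tmsb4x* is highest there, and *Wipf1* overlaps in all sets.

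Over all 18 libraries the genes whose levels ran most alike were named for the 4 members called in any comparison, by Pearson's r of log2 RPM among 6207 genes, as a description that mixes tissue, library set and knockout. *Rac2* ran with *Emp3*, *Sh3bgrl3* and *Gnai2* (r = 0.98 each), and *Tmsb4x* with *Dbi*, *S100a4* and *Ndufb2* (0.97, 0.96 and 0.95). *Was* ran with *Kmt2d*, *Eif3k* and *Ivd* (each 0.96). *Ppp1r9b* had weaker partners in *Casc3*, *Pmm2* and *Sin3a* (0.88, 0.82 and 0.82). No member was among the 3 nearest genes of another member.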

How the data were processed

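Bulk 3′ mRNA-seq of sorted rat T cells was analysed in 18 libraries, 3 per group. Per the labels and methods, the authors aligned reads to Rnor_6.0 with STAR 2.7.2b, counted them with HTSeq 1.0.0 and divided them by DESeq2 2.11.40.7 size factors. The deposited signal values are these normalized counts, scaled within each table. Whole reads were recovered for 100% of values within 0.01, which gave the depths, RPM and count tests. Genes whose normalized counts averaged 10 or more over a table were fitted with limma 3.58.1 (R 4.3.3, eBayes with trend, replicate number as a block) on log2(value + 1), so fold changes are on that scale and understate those of low genes. Adjusted p-values are Benjamini-Hochberg values over all genes tested. The script was tested on simulated data. Alternatives were pseudocounts 0.1 and 5, no minimum or 50, quantile and upper quartile scaling, no block, other eBayes settings, each replicate left out, edgeR 4.0.16 and DESeq2 1.42.0. The study describes its replicates as biological, but the labels do not say which animal a library came from. All members were named. From the wider list up to 6 called genes each way were named by size, and for called members the 3 genes most alike. The members and lists were chosen with earlier results of these data known. The human tables (8 columns of values per sample) and the authors' comparison and pathway tables, which hold fold changes and p-values, were not used, and 1 role group of the wider list is not reported here. Promoter sequences came from RefSeq (GRCr8), a build other than that of the counts.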

Additional observations from a re-analysis of the deposited data

Results flagged for a closer look

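The *Ets1*-KO effect on *Was* differed between parenchyma and spleen by -0.69 on the log2 scale (limma, adjusted p = 0.00421), with all 3 ratios below zero in the parenchyma and all 3 above zero in the spleen. These ratios match libraries by number, and in the spleen the KO and NT counts of *Was* overlapped. The call on *Was* was kept without the replicate block (limma, adjusted p = 0.0253) and lost without replicate 1 (0.182) or replicate 2 (0.0734). The effect on *Arhgef1* differed by -0.74 between the same tissues (limma, adjusted p = 0.0151, and 0.0795 without the replicate block). Both were flagged because the test of the difference between tissues itself passed the threshold. In the spleen *Ets1* table the KO libraries were deeper than their controls, with 1909862 to 2248258 against 898092 to 1213485 reads on genes, and the part of depth in these differences was not tested.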

How the results depend on the processing

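The calls of *Ppp1r9b* and *Was* in the parenchyma held under 13 of 14 alternatives each, *Tmsb4x* there under 11, *Rac2* under 10, and *Tmsb4x* in the spleen under 12. The exception for each was limma without a trend, which called 3, 0 and 0 genes in all in the parenchyma, the spleen *Ets1* and the spleen *Grk2* table and 2 for the tissue difference, and 0 members in each; the other losses came with leaving out replicates and, for *Rac2*, with DESeq2. Over all genes, 366, 155 and 109 calls became 86, 55 and 12 with DESeq2, and without a minimum count 212 in the parenchyma and 242 in the spleen *Ets1* table. EdgeR called 238 in the spleen *Ets1* table, and a minimum of 50 left 60 in the *Grk2* table and called 2 members for the tissue difference. Leaving out a replicate number gave 165 to 278 calls in the parenchyma (2 to 5 members), 3 to 241 in the spleen *Ets1* table (0 to 2 members, 3 calls without replicate 1), 9 to 48 in the *Grk2* table and 26 to 96 for the tissue difference (0 to 1 members). The share of upward calls was 43.4% in the parenchyma but 54.8% with edgeR and 68.6% with DESeq2, and 59.6% in the *Grk2* table but 44.7% with upper quartile scaling. The cause was not tested. Without the replicate block 200, 71 and 19 genes and 47 for the tissue difference were called, with the same number of members as in the blocked fit. Deviations of same-numbered KO and NT libraries correlated at 0.13, 0.16 and -0.003 in the parenchyma, 0.09, 0.08 and 0.18 in the spleen *Ets1* table and 0.14, 0.01 and 0.12 in the *Grk2* table. Libraries of unlike number correlated at -0.16 to 0.04, -0.12 to 0.05 and -0.13 to 0.02 in the same order. Every same-numbered value was above these only in the spleen *Ets1* table, so the correlations did not settle whether the numbers pair the libraries. The block was kept because the methods describe co-transfer and correction per animal. Of the wider list 2 of 6 genes in the parenchyma, 0 of 2 in the *Grk2* table and 0 of 1 for the tissue difference stayed called without it.

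Among the members and the *Ets1* transcript, signs turned only in comparisons in which that gene was not called. Leaving out replicates gave log2 values of -0.143 to 0.0167 for *Actb* in the parenchyma. In the spleen *Ets1* table they gave -0.0637 to 0.0857 for *Wipf1*, -0.0442 to 0.0901 for *Coro1a*, -0.0755 to 0.276 for *Arpc1b*, -0.58 to 0.15 for *Pfn1*, -0.111 to 0.0327 for *Rac2* and -0.141 to 0.00856 for *Ets1*. In the *Grk2* table they gave -0.0292 to 0.0728 for *Actb*, -0.301 to 0.00475 for *Ppp1r9b*, -0.0230 to 0.0741 for *Tmsb4x*, -0.0291 to 0.194 for *Pfn1*, -0.172 to 0.0955 for *Wipf1* and -0.0909 to 0.0488 for *Arpc1b*, and -0.21 to 0.11 for the tissue difference of *Arpc1b*. *Actb* in the *Grk2* table was at -0.0029 with DESeq2, -0.00057 with edgeR and -0.0043 with upper quartile scaling. The depth of 898092 to 2248258 reads and 3 libraries a group limit the precision. In the parenchyma the 95% intervals took their spread from genes of like level, so they do not measure a gene's own spread between replicates.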
